A study of Mus musculus with 28 samples.

Results

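The classical MHC class I presentation genes are described here: H2-K1, H2-D1, B2m, Tap1, Tap2, Tapbp, Nlrc5 and Erap1, which were taken by gene symbol from both tables of estimated counts. They are 8 of the 55341 gene names listed, and all 8 passed the filter on low counts in both tables. Expression was measured by bulk RNA sequencing of 28 whole tumors, each from a different mouse, which grew under the skin of female BALB/c.AusBP mice aged 8 to 10 weeks. All tumors came from AB1-HA, a single mouse mesothelioma cell line that carries the influenza hemagglutinin, and were collected on day 7 after treatment began. Mice received PBS (4 tumors), immune checkpoint blockade (ICB, 5 tumors), 5-FU at 75 mg/kg (5 tumors), cisplatin at 6 mg/kg (4 tumors), 5-FU+ICB (5 tumors) or cisplatin+ICB (5 tumors). ICB was 1 dose of 100 µg anti-CTLA-4 and 3 doses of 100 µg anti-PD-L1. The same PBS and ICB tumors are listed in each table, so every comparison with PBS or ICB shares those tumors with others.

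MHC class I molecules show peptides from inside the cell to CD8+ T cells. A heavy chain (H2-K1, H2-D1) pairs with B2m, the proteasome cuts proteins into peptides, the transporter made of Tap1 and Tap2 carries the peptides into the endoplasmic reticulum, Erap1 trims them there, and tapasin (Tapbp) holds the empty heavy chain beside the transporter while peptides are loaded. Nlrc5 is the transactivator of these genes, and interferon gamma raises them. Almost all nucleated cells carry class I, leukocytes at high levels, so a whole tumor sums the RNA of malignant, stromal and immune cells. In such bulk samples fewer cells of a type and less RNA per cell cannot be told apart.

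In the GENCODE M21 annotation of GRCm38, 5 of the genes lie on chromosome 17 in the H2 region. Tapbp is at chr17:33915899-33929292 on the plus strand, H2-K1 at chr17:33996017-34000347 on the minus strand, Tap1 at chr17:34187553-34197225, Tap2 at chr17:34203527-34216321 and H2-D1 at chr17:35262730-35267499, the last 3 on the plus strand. B2m lies at chr2:122147686-122153083, Nlrc5 at chr8:94434356-94527272 and Erap1 at chr13:74639568-74693201, all on the plus strand. BALB/c mice have the H2-d haplotype and the reference genome is that of C57BL/6J, which has H2-b, so reads of both heavy chains were matched to another haplotype. Of the 31-base words in the transcripts, 735 of 3230 for H2-K1 and 697 of 2591 for H2-D1 also occur in other genes, and these 2 genes share 358 with each other, so how reads were split between them and their paralogs is uncertain. Tapbp shares as large a part, 995 of 3701, of which 819 occur in Gm19412 and 89 in Zbtb22, Erap1 shares 804 of 7325 and Tap2 545 of 3800, and B2m shares none of its 830. Tap1 overlaps Psmb9, Tap2 overlaps Gm15821 and Gm20496, Tapbp overlaps Gm19412, Erap1 overlaps Cast and Nlrc5 overlaps 9330175E14Rik, each on the opposite strand. Each of these pairs shares words, and without a stated strand setting the reads of those words cannot be told apart. B2m overlaps Patl2 on the opposite strand but shares no word with it. Tapbp also overlaps Zbtb22 on the same strand, which no strand setting separates. Nlrc5 overlaps Mir7072 on the same strand, but all 49 of its shared words occur in 9330175E14Rik.

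The promoter windows are shown because known elements of class I promoters can be looked up in them. RefSeq windows for GRCm38.p6, from 250 bases before to 50 bases after the annotated start, were found for 6 of the 8 genes, and Tap2 and Nlrc5 have no entry in that table. The windows below run 5′ to 3′ on the strand of the gene: H2-K1 chr17:34000298-34000597 on the minus strand (the first of its 2 entries), H2-D1 chr17:35262844-35263143, B2m chr2:122147437-122147736, Tap1 chr17:34187306-34187605 and Erap1 chr13:74639603-74639902. Capitals mark matches on either strand to the interferon-stimulated response element core (GAAA, any 2 bases, GAAA), the interferon gamma activated site TTCNNNGAA, the class I enhancer A (GGGGA, any 2 bases, CCC) bound by NF-kB, the Y box CCAAT and the X2 core TGACG.
H2-K1: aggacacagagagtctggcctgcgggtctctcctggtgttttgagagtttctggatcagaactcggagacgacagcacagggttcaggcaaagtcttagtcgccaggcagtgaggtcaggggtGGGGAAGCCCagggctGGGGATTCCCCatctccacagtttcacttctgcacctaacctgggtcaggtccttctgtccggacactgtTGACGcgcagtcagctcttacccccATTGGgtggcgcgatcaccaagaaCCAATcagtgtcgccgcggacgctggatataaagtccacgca
H2-D1: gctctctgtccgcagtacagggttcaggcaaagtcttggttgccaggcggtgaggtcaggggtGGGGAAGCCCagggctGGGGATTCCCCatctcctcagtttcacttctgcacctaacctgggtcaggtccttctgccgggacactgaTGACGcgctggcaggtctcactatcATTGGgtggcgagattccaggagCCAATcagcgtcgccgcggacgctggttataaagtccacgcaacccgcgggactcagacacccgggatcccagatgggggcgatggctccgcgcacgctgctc
B2m: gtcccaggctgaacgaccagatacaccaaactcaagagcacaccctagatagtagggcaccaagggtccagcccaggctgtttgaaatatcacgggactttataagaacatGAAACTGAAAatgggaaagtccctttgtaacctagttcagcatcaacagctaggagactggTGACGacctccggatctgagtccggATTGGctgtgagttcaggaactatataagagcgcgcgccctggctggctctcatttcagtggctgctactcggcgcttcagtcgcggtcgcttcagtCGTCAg
Tap1: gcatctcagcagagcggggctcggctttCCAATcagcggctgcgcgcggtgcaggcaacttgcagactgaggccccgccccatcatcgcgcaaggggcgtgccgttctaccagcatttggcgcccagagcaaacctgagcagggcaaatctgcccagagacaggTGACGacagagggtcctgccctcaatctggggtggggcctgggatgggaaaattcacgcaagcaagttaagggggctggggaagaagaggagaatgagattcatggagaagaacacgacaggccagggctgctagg
Erap1: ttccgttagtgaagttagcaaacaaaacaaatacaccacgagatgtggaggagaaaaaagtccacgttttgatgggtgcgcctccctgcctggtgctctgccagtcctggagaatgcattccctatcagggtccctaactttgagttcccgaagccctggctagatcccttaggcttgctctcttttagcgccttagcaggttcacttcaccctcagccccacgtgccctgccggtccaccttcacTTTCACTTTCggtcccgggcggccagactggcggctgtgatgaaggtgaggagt

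Positions are counted from the annotated start as 1, with no 0. Both heavy chain windows held 3 matches to enhancer A that overlap in part, the first at -127 for H2-K1 and at -187 for H2-D1, followed by an X2 core at -41 and -101 and by 2 Y boxes. The B2m window held the interferon-stimulated response element core at -139, X2 cores at -78 and 45 and a Y box at -53. Tap1 had a Y box at -222 and an X2 core at -86, Erap1 had the response element core across its start, from -4 to 6, and Tapbp (chr17:33919228-33919527, not shown) had Y boxes at -248 and -165. No window held the interferon gamma activated site. Among all 32851 promoter windows of the table, 1.65% held enhancer A, 3.44% the response element core, 8.30% the activated site, 20.8% the X2 core and 37.4% the Y box, so the short motifs are common.

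The libraries had 23541733 to 33950805 counts, and the lowest estimated count of any member in any tumor was 541, for Tap2. Levels are given as CPM, counts scaled to the size of the library, with TMM factors over all 28 tumors. Of the 7 mesothelial markers checked, 4 passed the filter. Mesothelin (Msln) was at 34.4 to 654 CPM in all tumors but 5-FU+ICB tumor 5, where it was under 1 CPM, beside 287 CPM of the B cell gene Cd79a and a mitochondrial share of 16.1% of counts, against 1.03% to 6.80% elsewhere. By group it was at 271 to 358 CPM in PBS tumors and under that range in every ICB (52.0 to 217), 5-FU (45.02 to 177) and 5-FU+ICB tumor (at most 167), while cisplatin tumors (212 to 308) overlapped PBS. Of the 5 cisplatin+ICB tumors 4 were under the PBS range, at 130.5 to 266 CPM, and tumor 1 was above it, at 654 CPM. The part of this shift in the results was not tested. The keratins were high in 5-FU+ICB tumor 5: Krt8 was at 33.4 CPM (at most 9.33 elsewhere) and Krt19 at 48.9 CPM (at most 1.86 elsewhere). Wt1 was at 0 to 2.78 CPM in every tumor. In 4 libraries (PBS tumors 1 and 2, cisplatin tumor 4, cisplatin+ICB tumor 1) longer transcripts were low: the correlation over genes between transcript length and the deviation of log2 CPM from the mean of all tumors was -0.37, -0.56, -0.50 and -0.59, and between -0.17 and 0.48 in the others. The mean log2 CPM of 6 leukocyte markers ran from 6.56 to 7.14 in PBS, 7.99 to 9.17 in ICB, 6.73 to 8.78 in 5-FU, 7.04 to 9.90 in 5-FU+ICB, 6.63 to 7.46 in cisplatin and 7.21 to 8.54 in cisplatin+ICB tumors. Other marker lists moved too. In 5-FU tumors the means of the T cell (2.39 to 5.92), macrophage (7.09 to 8.46), B cell (1.08 to 4.51), endothelial (4.59 to 5.77) and fibroblast lists (8.05 to 9.21) all lay above those of PBS tumors (1.85 to 2.36, 6.70 to 6.94, -0.27 to 0.52, 3.31 to 4.45 and 7.11 to 7.78). The same 5 lists lay above PBS in 5-FU+ICB tumors, at 2.80 to 7.69, 6.940 to 8.51, 0.64 to 7.46, 4.66 to 6.79 and 8.13 to 9.09, where the lowest macrophage value was barely above the highest of PBS (6.935). In ICB tumors the T cell (4.47 to 6.59) and macrophage lists (7.81 to 9.15) did. The skeletal muscle list was at 3.23 to 4.50 in PBS tumors and overlapped them in every group. It was at 0.21 in 5-FU tumor 2 and 6.89 to 7.68 in the other 5-FU tumors. It was at -1.84 in 5-FU+ICB tumor 2 and 6.25 to 9.46 in the others of that group. ICB tumors ran from -2.39 to 8.92. Their part in the results was not tested.

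The first question is what checkpoint blockade alone did to class I transcripts. All 8 genes were higher in ICB than in PBS tumors by edgeR's quasi-likelihood test, at a Benjamini-Hochberg adjusted p under 0.05 and a log2 fold change over 0.5. By the same rule 37.8% of the 17916 genes tested were called, and 19.0% of the genes tested were called higher. The log2 fold changes of the members ran from 1.07 to 2.09 with a median of 1.496, while the median over all genes was -0.03. For each of the 8 genes the lowest ICB tumor lay above the highest PBS tumor, a separation that 37.4% of all genes showed in either direction. Without the 4 libraries low in long transcripts, which leaves 2 PBS tumors, 5 of the 8 remained called, and H2-K1, H2-D1 and B2m did not, at log2 fold changes of 1.30, 1.46 and 1.27; 2192 genes in all were called in that fit, against 6771.

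With 5-FU alone, 5 of the 8 genes were higher than in PBS: Tap1, Tap2, Tapbp, Nlrc5 and Erap1. Of all genes tested, 23% were called, 9.98% higher. For Tap2, Tapbp, Nlrc5 and Erap1 every 5-FU tumor lay above every PBS tumor, a separation in either direction that 27.0% of all genes showed. The heavy chains and B2m were not called, at log2 fold changes of 0.45, 0.21 and 0.27. With cisplatin alone 0 of the 8 genes differed from PBS, and edgeR called 0% of the 17819 genes tested, of which 317 (1.78%) had an unadjusted p under 0.05, none of them a member. DESeq2 called 4 genes there and no member. The calls for 5-FU depended on the samples in the fit: 0 of the 8 were called when all 6 groups entered the fit or when the 4 libraries were left out, although the 5 log2 fold changes stayed between 0.82 and 1.09 in the former and 0.69 and 0.85 in the latter. In all, 825 and 70 genes were called in those fits, against 4115.

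**Figure D1:**
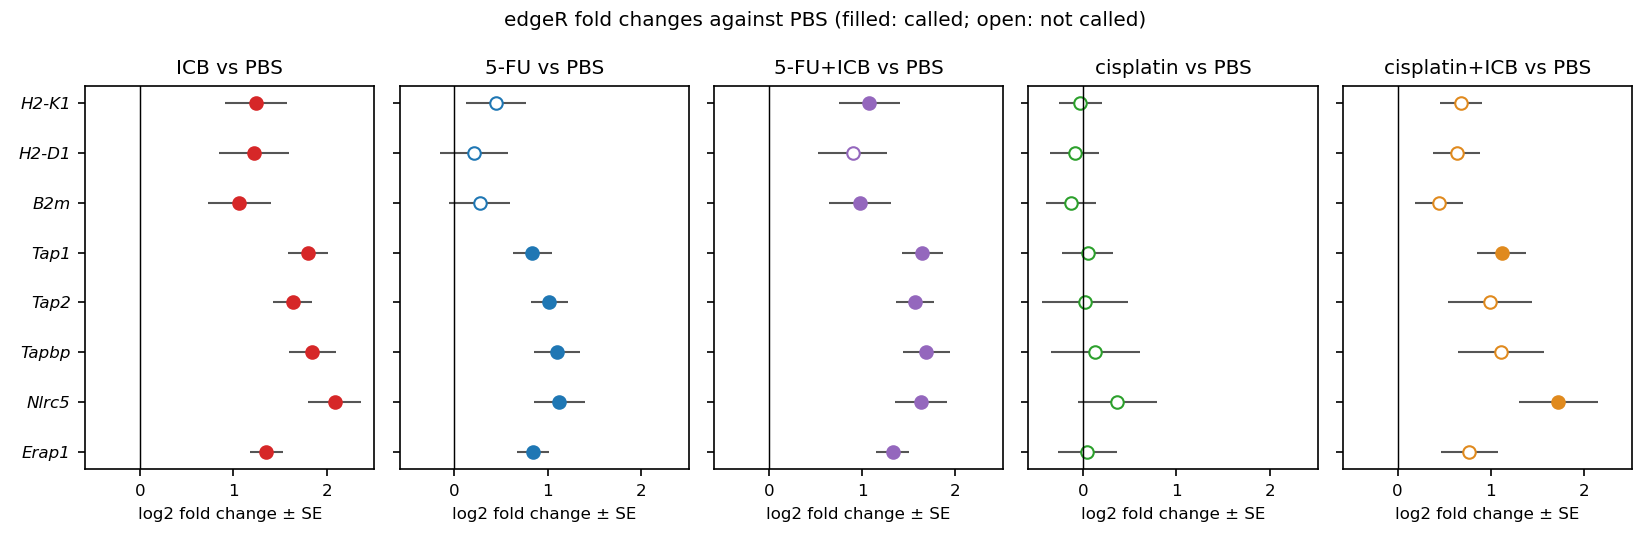
Log2 fold change against PBS (x axis, with the standard error as a bar) of the 8 genes (y axis) for each treatment, from edgeR; filled points were called and open points were not. All 8 points are filled for ICB, 5 for 5-FU, 7 for 5-FU+ICB, 0 for cisplatin and 2 for cisplatin+ICB.

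The combinations were set against PBS next. In 5-FU+ICB tumors 7 of the 8 genes were higher, where 40.7% of all genes were called and 21.9% were higher, and H2-D1 was not, at a log2 fold change of 0.90 (edgeR adjusted p = 0.0552). H2-D1 was called, for 8 of 8, by DESeq2 (adjusted p = 0.0292), and by edgeR with DESeq2 size factors (0.0467), with at least 10 counts in every tumor (0.0401) and with all 6 groups joined (0.0471). Over all genes these fits called 7923, 7055, 5567 and 5812, against 7283 in the main fit. Without the 4 libraries low in long transcripts 5 of the 8 were called, with H2-K1 and B2m lost (edgeR adjusted p = 0.0962 and 0.0866), and 1789 genes in all. For Tap1, Tap2, Tapbp, Nlrc5 and Erap1 the 5-FU+ICB tumors did not overlap the PBS tumors, as 25.5% of all genes did not. Without 5-FU+ICB tumor 5, the library with almost no mesothelin, 6 of the 8 were called among 6559 genes. The counts of the comparisons of this combination with ICB, with 5-FU and with cisplatin+ICB stayed at 0, among 37, 2 and 3 genes. In cisplatin+ICB tumors 2 of the 8 were higher, Tap1 and Nlrc5, where 6.10% of all genes were called and 4.70% were higher. At an unadjusted p under 0.05 there were 7 members, against 23.6% of all genes. The 2 calls depended on single tumors: the number of members called was 7 without cisplatin+ICB tumor 1, 3 without tumor 3, and 0 when any PBS tumor or cisplatin+ICB tumor 2, 4 or 5 was left out. The calls over all genes moved with it, from 1087 to 6277 without tumor 1, 1574 without tumor 3, 249 to 361 without tumor 2, 4 or 5, 790 without PBS tumor 2 and 0 without any other PBS tumor. Without the 4 libraries low in long transcripts 5 members and 1754 genes were called.

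The light chain B2m was followed in every tumor, since it shares no sequence word with other genes. Its levels were 1756, 1860.4, 1381 and 1646 CPM in the PBS tumors and 3221, 3656, 3935, 2452 and 3939.5 CPM in the ICB tumors. The groups did not overlap, and the means were 1661 ± 206 CPM (SD, n = 4) and 3441 ± 626 CPM (SD, n = 5). B2m thus rose by 1.07 ± 0.33 on the log2 scale (SE, edgeR adjusted p = 0.0168). The 5-FU tumors had 1385, 1683, 3598, 1195 and 2107 CPM of B2m. Only tumors 3 and 5 of these lay above every PBS tumor. In the 5-FU+ICB group B2m was at 4080.2, 1484, 3498, 2685 and 4421 CPM. Tumor 2 of that group sat within the PBS range, and the other 4 lay above it. Cisplatin tumors had 1387, 1429, 1165 and 2064 CPM and cisplatin+ICB tumors 1411, 2542, 1502, 3005 and 2743 CPM. Thus 3 of the 5 cisplatin+ICB tumors exceeded every PBS tumor, and the group was not called (log2 fold change 0.45 ± 0.26 SE, edgeR adjusted p = 0.315).

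H2-K1, the heavy chain of the K locus, was at 759, 766, 695 and 843 CPM in PBS tumors and at 1561, 1952, 2005, 1431 and 1974 CPM in ICB tumors. The log2 fold change was 1.24 ± 0.33 (SE, edgeR adjusted p = 0.00673). H2-D1, the heavy chain of the D locus, ranged from 1727 to 2619 CPM in PBS and from 3393 to 5906 CPM in ICB tumors. Both heavy chains followed B2m in the other groups: in 5-FU tumors they were highest in tumor 3, at 1911 CPM of H2-K1 and 4747 CPM of H2-D1, and the other 4 tumors had at most 1073 and 2515 CPM. 5-FU+ICB tumor 2 had 712 CPM of H2-K1 and 1568 CPM of H2-D1, the latter under every PBS tumor.

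**Figure D2:**
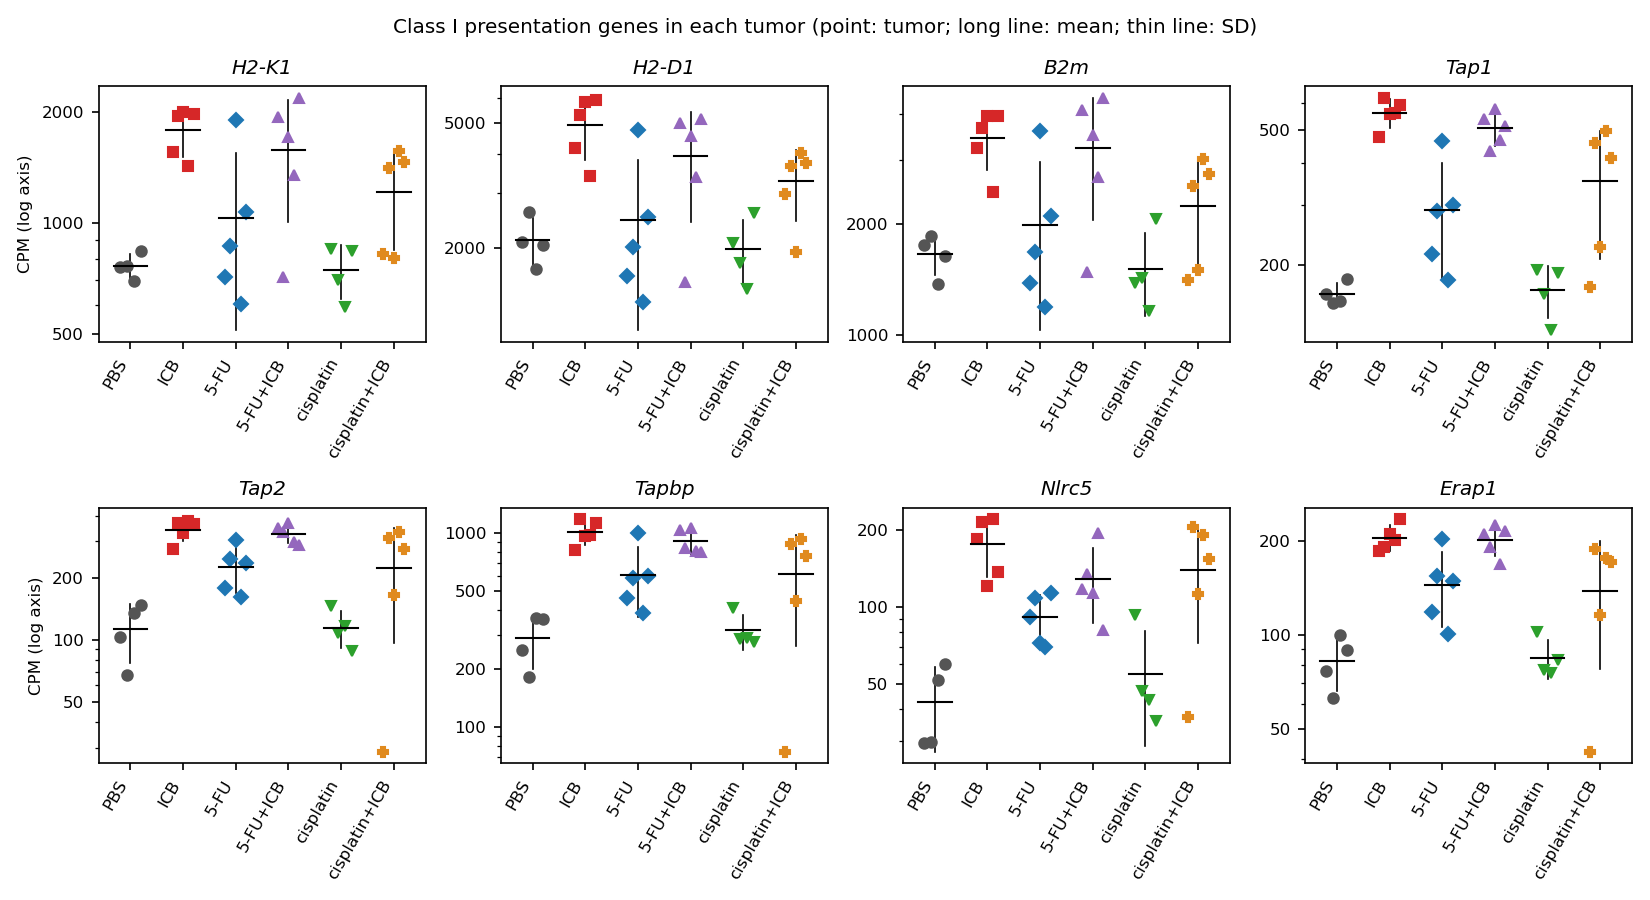
CPM (log y axis) of each gene in each tumor by treatment group (x axis); points are tumors, long lines group means and thin vertical lines the SD. ICB tumors lie above all PBS tumors for every gene, and cisplatin+ICB tumor 1 is the lowest of all 28 tumors for Tap2 (28.7 CPM), Tapbp (75.1 CPM) and Erap1 (42.2 CPM).

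Tap1 and Tap2 form the peptide transporter. Tap1 was at 164, 154, 157 and 181 CPM in PBS tumors and at 477, 622, 557, 559 and 591 CPM in ICB tumors. Its log2 fold change in ICB was 1.80 ± 0.22 (SE, edgeR adjusted p = 5.50e-05), and the 5-FU+ICB tumors (433 to 575 CPM) also lay above every PBS tumor. The 5-FU tumors, at 216, 288, 464, 181 and 300.3 CPM, all lay under the lowest ICB tumor, and the lowest of these overlapped the highest PBS tumor. The ratio of Tap1 to B2m CPM was 0.0828 to 0.113 in PBS tumors, 0.141 to 0.228 in ICB, 0.129 to 0.171 in 5-FU, 0.116 to 0.292 in 5-FU+ICB and 0.122 to 0.180 in cisplatin+ICB tumors, so all 4 groups lay above PBS. Cisplatin tumors, at 0.0917 to 0.139, overlapped it. The lowest PBS ratios, 0.0828 and 0.0932, belong to PBS tumors 2 and 1, libraries low in long transcripts. PBS tumors 3 and 4 had 0.113 and 0.110. The longest coding transcript has 2953 bases for Tap1 and 860 for B2m. The part of transcript length in the ratio was not tested, and no share over all genes was taken for it. Tap2, the other subunit, rose by 1.64 ± 0.21 in ICB, 1.02 ± 0.20 in 5-FU and 1.57 ± 0.21 in 5-FU+ICB on the log2 scale (SE, edgeR adjusted p = 7.88e-05, 0.00464 and 0.000119), and all 15 tumors of these groups (161 to 378 CPM) lay above the 4 PBS tumors (67.8 to 148 CPM).

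Tapbp and Erap1, the loading chaperone and the trimming peptidase, followed Tap2. Tapbp was at 251, 180.5, 363 and 362 CPM in PBS tumors, 812 to 1176 CPM in ICB tumors and 459.8, 587, 998, 388 and 598 CPM in 5-FU tumors. Every ICB and 5-FU tumor thus lay above the PBS tumors, with log2 fold changes of 1.85 ± 0.25 and 1.10 ± 0.25 (SE, edgeR adjusted p = 0.000151 and 0.00748). The 5-FU+ICB tumors had 799 to 1059.5 CPM of Tapbp, tumor 2 included at 833 CPM. In the cisplatin+ICB group Tapbp was at 75.1, 871, 444, 926 and 764 CPM, so tumor 1 lay under every other tumor of the study and the remaining 4 lay above every PBS tumor. Erap1 was at 62.6 to 99.9 CPM in PBS, 185 to 235 CPM in ICB, 100.4 to 203 CPM in 5-FU, 168 to 224 CPM in 5-FU+ICB and 75.4 to 102 CPM in cisplatin tumors. Its log2 fold change was 1.35 ± 0.18 in ICB, 0.84 ± 0.17 in 5-FU and 1.33 ± 0.18 in 5-FU+ICB tumors (SE, edgeR adjusted p = 9.46e-05, 0.00543 and 0.000124).

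Nlrc5, the transactivator, was the lowest member per length of transcript, at 5.65 CPM per kilobase in PBS tumors against 1931 for B2m. It was at 29.5, 29.8, 52.2 and 59.8 CPM in PBS tumors and at 184, 216, 122, 221 and 137 CPM in ICB tumors. The log2 fold change of 2.09 ± 0.28 in ICB (SE, edgeR adjusted p = 0.000144) was the largest of the 8 members there, although the difference from the other members was not tested. In 5-FU tumors Nlrc5 was at 91.3, 109, 72.2, 70.0 and 114 CPM, all above the PBS tumors, with a log2 fold change of 1.12 ± 0.27 (SE, edgeR adjusted p = 0.0102). Its values in 5-FU+ICB tumors were 118, 135, 113, 195 and 81.8 CPM and in cisplatin+ICB tumors 37.3, 205, 113, 191 and 154 CPM. Cisplatin tumor 1, at 93.6 CPM, stood above the other 3 cisplatin tumors, which had 36.0 to 47.0 CPM. The 2 lowest PBS values belong to the libraries low in long transcripts, and Nlrc5 has the longest transcript of the members at 7578 bases.

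For 7 of the 8 genes the group means ran in the order ICB, 5-FU+ICB, cisplatin+ICB and 5-FU or with the last 2 exchanged, then PBS and cisplatin in either order. Nlrc5 had cisplatin+ICB above 5-FU+ICB. In all 40 pairs of neighbours in these orders the ranges of the groups overlapped, so neighbours were not separated by their spread.

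The combinations were then compared with each treatment alone, to ask what the second agent added. Against ICB, edgeR called 0 of the 8 genes in 5-FU+ICB tumors and 0.229% of all genes, and 0 members had an unadjusted p under 0.05, as 10.9% of all genes had. The log2 differences of the members ran from -0.45 for Nlrc5 to -0.03 for Erap1, with adjusted p from 0.539 to 0.974, and DESeq2 also called 0. Against 5-FU alone, the same tumors had 0 members called by edgeR, where 0.0112% of all genes were called. All 8 log2 differences were above 0, from 0.49 to 0.81, 5 had an unadjusted p under 0.05 (16.6% of all genes), and DESeq2 called Tap1 among 539 genes. Without 5-FU tumor 3, which had the highest level of 7 of the 8 genes in its group, edgeR called 5 members among 640 genes, and without 5-FU+ICB tumor 2 it called 2 among 1948, against 2 genes with all tumors.

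Adding cisplatin to ICB gave log2 differences from ICB of -0.71 for Tapbp to -0.33 for Nlrc5, with 0 members called by edgeR or DESeq2 and 4 at an unadjusted p under 0.05 (15.9% of all genes), where edgeR called 0% of all genes. Against cisplatin alone all 8 were above 0, from 0.58 for B2m to 1.36 for Nlrc5. All 8 had an unadjusted p under 0.05 (14.2% of all genes), edgeR called 0 members and 0% of all genes, and DESeq2 called 783 genes with 4 members among them: H2-K1, H2-D1, Tap1 and Nlrc5. This comparison depended on libraries. Without the 4 libraries low in long transcripts, which leaves 3 cisplatin and 4 cisplatin+ICB tumors, edgeR called all 8, at log2 differences of 0.93 to 1.49, and 1585 genes in all. Without cisplatin+ICB tumor 1 alone it called 6 members among 2114 genes, and without cisplatin+ICB tumor 3 it called 2 among 536.

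The interaction asks whether the change from both agents differed from the sum of their changes on the log2 scale. For 5-FU and ICB all 8 terms were under 0, from -0.36 for B2m to -1.58 ± 0.37 (SE) for Nlrc5. None was called by edgeR, which called 0.0893% of all genes, and the adjusted p of Tap1, Tap2, Tapbp, Nlrc5 and Erap1 ran from 0.0665 to 0.0706. These 5 had an unadjusted p under 0.05 (23.9% of all genes) and were called by DESeq2, which called 1542 genes. The count by edgeR was 4 without PBS tumor 3 or PBS tumor 4, 2 without 5-FU+ICB tumor 4 and 1 without 5-FU tumor 4, and 1698, 1017, 950 and 81 genes in all were called in these fits, against 16. For cisplatin and ICB the terms ran from -0.84 to -0.49, with 0 called by either tool, 0 at an unadjusted p under 0.05 (7.14% of all genes) and 0% of all genes called by edgeR.

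The 2 drugs were compared directly in the joined table. Tumors given 5-FU had higher levels than those given cisplatin for all 8 genes, at log2 differences of 0.30 to 0.98, of which 4 had an unadjusted p under 0.05 (15.5% of all genes) and 0 were called by edgeR or DESeq2, where edgeR called 0.362% of all genes. Only Tap2 had groups that did not overlap, at 161 to 303 CPM against 88.2 to 145 CPM, as 12.5% of all genes had. Without cisplatin+ICB tumor 1, which enters this fit through the shared estimate of spread, edgeR called 4 members among 1226 genes, against 67 genes with all tumors. Between the combinations 0 members were called by either tool, 2 had an unadjusted p under 0.05 (25.7% of all genes; edgeR called 0.297%), and log2 differences ran from -0.12 to 0.56.

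**Figure D3:**
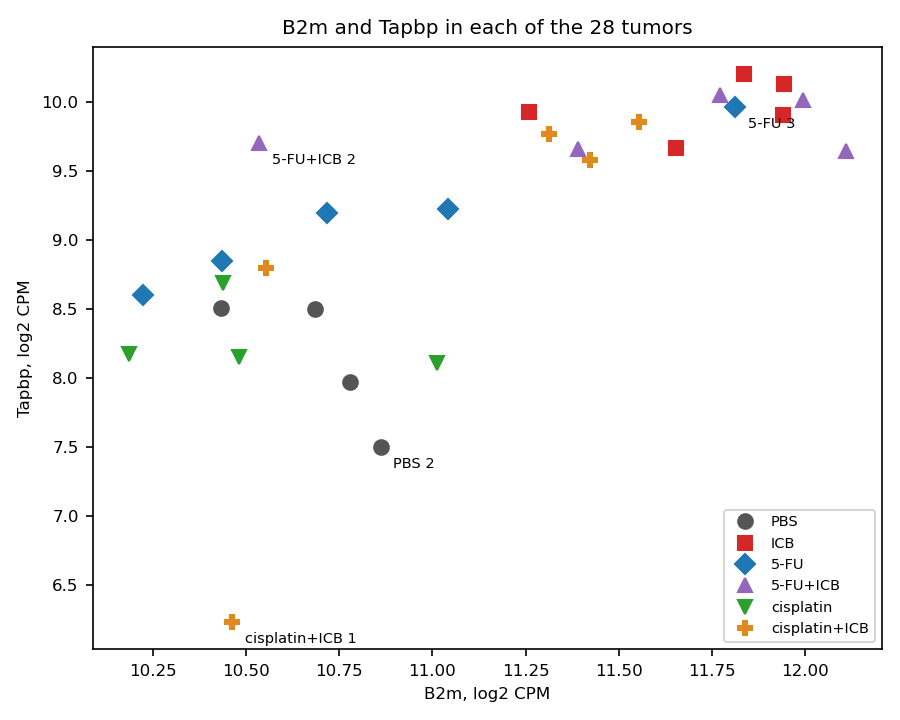
Log2 CPM of Tapbp (y axis) against log2 CPM of B2m (x axis), 1 point per tumor, with a colour and shape for each group. Cisplatin+ICB tumor 1 lies lowest for Tapbp at 75.1 CPM, while 5-FU+ICB tumor 2 has 833 CPM of Tapbp with a B2m level of 1484 CPM.

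Within groups, 6 of the members fell into 2 sets, which were read from these correlations, and Tap1 was related to both at r of 0.68 to 0.86. Log2 CPM was centred on each group's mean over the 28 tumors, and p-values came from 100000 permutations within groups, adjusted over 44 relations. H2-K1, H2-D1 and B2m moved together, with Pearson's r of 0.95 to 0.97 and Spearman's rho of 0.92 to 0.95 (adjusted permutation p = 3.67e-05 and 4.00e-05, from the smallest p the permutations can give). Leaving out the 2 tumors farthest from the median gave r of 0.91 to 0.95. Tap2, Tapbp and Erap1 formed the other set, with r of 0.95 to 0.99, rho of 0.85 to 0.98 and the same adjusted permutation p, and r of 0.88 to 0.96 without 2 tumors. Between the sets, the 9 pairs had r of 0.19 to 0.60 and rho of 0.23 to 0.71. The highest was H2-K1 with Erap1 (adjusted permutation p = 0.00122 for r and 0.000751 for rho), at r of 0.65 without 2 tumors, and the lowest was H2-D1 with Tap2 (adjusted permutation p = 0.368 and 0.297), at r of 0.17 without 2 tumors. The difference between relations within and between the sets was not tested.

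The first set moved with the leukocyte marker mean, at r of 0.97 for H2-K1, 0.96 for H2-D1 and 0.96 for B2m and rho of 0.94, 0.94 and 0.95 (adjusted permutation p = 3.67e-05 and 4.00e-05), and r stayed at 0.95, 0.93 and 0.94 without 2 tumors. Tap1 also moved with it, at r of 0.69 and rho of 0.74 (adjusted permutation p = 0.00022 and 0.000688), as did Erap1, at 0.48 and 0.58 (0.0084 and 0.00779). Tapbp passed by r alone, at 0.41 and 0.43 (0.0202 and 0.0535), and Tap2 by neither, at 0.31 and 0.33 (0.0966 and 0.145). Without 2 tumors r was 0.69 for Tap1, 0.50 for Erap1, 0.42 for Tapbp and 0.35 for Tap2. For Nlrc5 r was 0.01 and rho -0.06 (adjusted permutation p = 0.949 and 0.771), or r of 0.11 without 2 tumors. Nlrc5 was related to Tap2 at r of 0.80 and rho of 0.69 (adjusted permutation p = 0.00156 and 0.00185), to Tapbp at 0.75 and 0.63 (0.0063 and 0.00518) and to Erap1 at 0.68 and 0.42 (0.0265 and 0.0689), with r of 0.60, 0.50 and 0.38 without 2 tumors. It also moved with the length measure of the library, at r of 0.80 and rho of 0.74 (adjusted permutation p = 0.000854 and 0.00103), and r of 0.68 without cisplatin tumor 4 and cisplatin+ICB tumor 1. Tap2 had r of 0.66 and rho of 0.44 with that measure (adjusted permutation p = 0.0271 and 0.0629), and r of 0.38 without those 2 tumors, so that relation rested on them. Tapbp, at 0.59 and 0.39 (0.065 and 0.103), and Erap1, at 0.52 and 0.22 (0.107 and 0.36), passed by neither. Tap1 did not pass either, at 0.13 and -0.07 (0.75 and 0.76). Without those 2 tumors r was 0.27 for Tapbp, 0.19 for Erap1 and -0.19 for Tap1. In the heavy chain set every r and rho with the length measure was under 0, and differences between its genes were not tested. H2-D1 had r of -0.42 and rho of -0.56 (adjusted permutation p = 0.0208 and 0.00403), and r of -0.52 without those 2 tumors. B2m had r of -0.29 and rho of -0.45 (adjusted permutation p = 0.161 and 0.0305), and r of -0.53 without them, and passed by rho alone. H2-K1 passed by neither, at r of -0.18 and rho of -0.30 (adjusted permutation p = 0.426 and 0.157), and r of -0.39 without them. Neither the share of leukocytes nor the length measure was tested as a cause of a group difference.

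**Figure D4:**
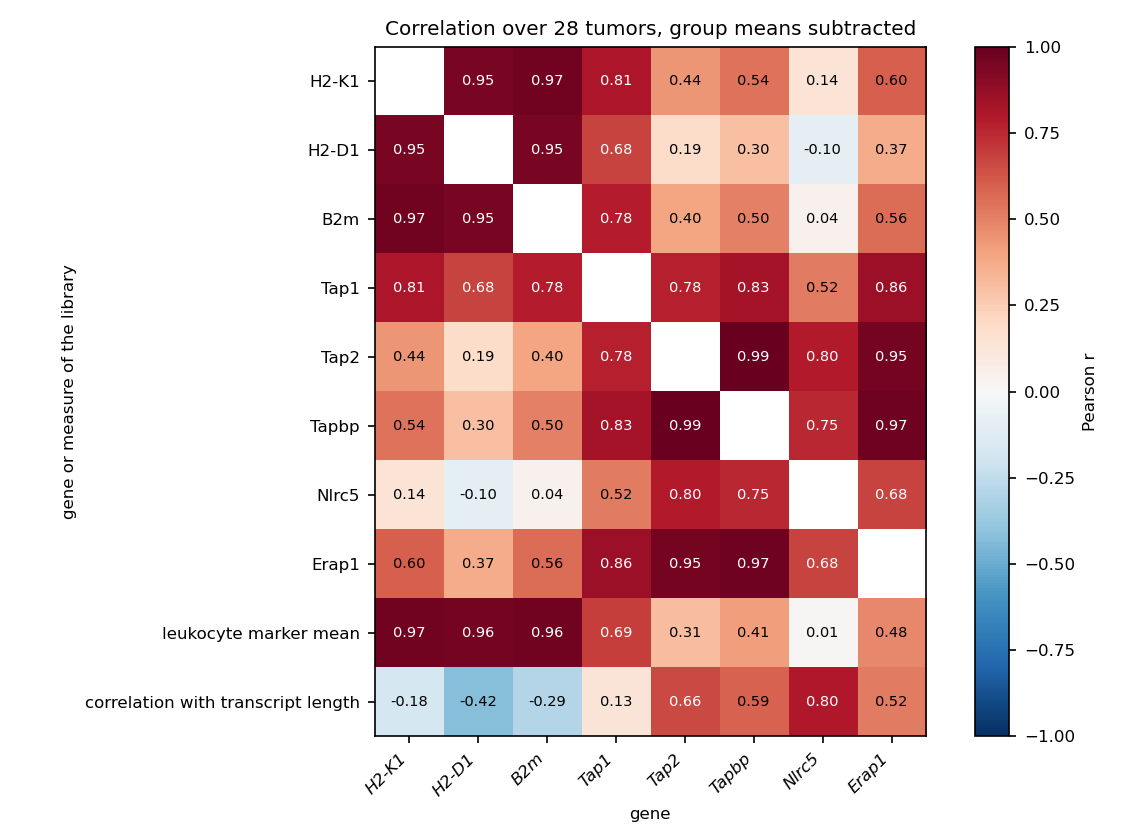
Pearson's r of group-centred log2 CPM between the 8 genes, and of each gene with the leukocyte marker mean and with the length measure, over 28 tumors; colour gives r from -1 to 1. H2-K1, H2-D1 and B2m form a block with the leukocyte mean, and Tap2, Tapbp and Erap1 form another.

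**Figure D5:**
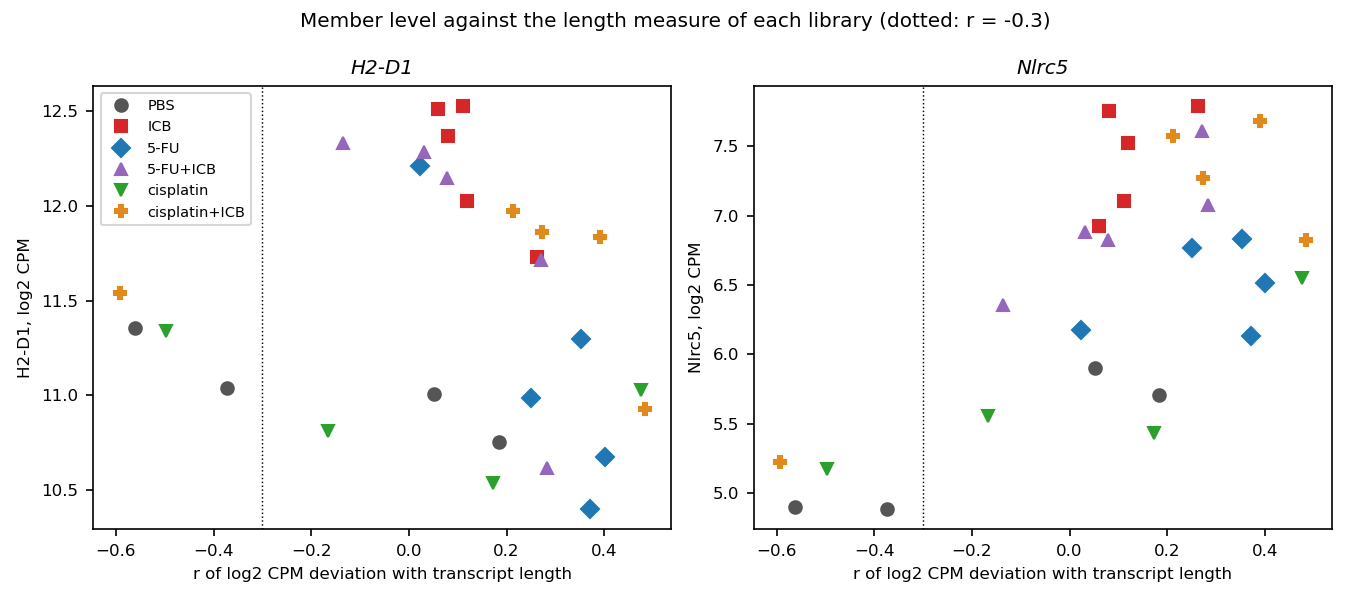
Log2 CPM of H2-D1 and of Nlrc5 (y axes) against the correlation of each library with transcript length (x axis), 1 point per tumor, with a colour and shape for each group and a dotted line at -0.3. The 4 libraries left of the line include the lowest Nlrc5 values; with group means subtracted, r was 0.80 for Nlrc5 and -0.42 for H2-D1.

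Other genes of the pathway were read from lists fitted in the same way, and their counts are to be read against the share of all genes called higher: 19.0% in ICB, 9.98% in 5-FU, 21.9% in 5-FU+ICB and 4.70% in cisplatin+ICB. All 5 genes of the inducible proteasome, which replaces catalytic subunits under interferon, were higher in ICB than in PBS tumors, among them Psmb9 at a log2 fold change of 1.20 ± 0.32 (SE, edgeR adjusted p = 0.00676). In 5-FU tumors 0 of the 5 were called and Psmb10 was at 0.58 (edgeR adjusted p = 0.0695). In 5-FU+ICB 3 of 5 were higher and in cisplatin+ICB 1. All 3 constitutive catalytic subunits were lower in ICB and in 5-FU tumors, 2 of 3 in 5-FU+ICB and 0 in cisplatin+ICB, where 18.8%, 13.0% and 18.7% of all genes were called lower in the first 3 groups, and Psmb5 had log2 fold changes of -0.998, -0.90 and -0.81 there.

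Of 6 genes of the interferon gamma signal, 4 were higher in ICB, 2 in 5-FU, 5 in 5-FU+ICB and 2 in cisplatin+ICB tumors. Ifng, the cytokine itself, had log2 fold changes of 5.26, 2.69 and 4.74 in the first 3 groups, from a PBS mean of 0.343 CPM. Of 13 class I transcription factors 7, 3, 7 and 3 were higher in those 4 groups. Ciita, the class II transactivator related to Nlrc5, rose by 3.85 in ICB, 1.84 in 5-FU and 2.74 in 5-FU+ICB on the log2 scale.

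Among 7 peptide loading helpers, 2 were higher in ICB, 2 in 5-FU, 2 in 5-FU+ICB and 1 in cisplatin+ICB tumors, so that this list does not stand clear of the shares of all genes in ICB and 5-FU+ICB. In 5-FU and cisplatin+ICB the counts rest on 2 genes and 1 gene, and an excess over the shares was not tested. Tapbpl, the peptide editor related to tapasin, had log2 fold changes of 1.38, 0.77 and 1.22 in ICB, 5-FU and 5-FU+ICB tumors. Of 7 tested peptidases (8 in the list), 2 were higher and 1 lower in ICB, beside 37.8% of all genes called there in either direction, and Lnpep, which trims peptides in endosomes, was at 1.06, while Thop1, a cytosolic peptidase, was at -0.85 (edgeR adjusted p = 0.00824). Of 7 tested nonclassical class I genes (8 in the list), 6 were higher in ICB, 1 in 5-FU, 6 in 5-FU+ICB and 2 in cisplatin+ICB. H2-Q7, a paralog that shares 31-base words with both heavy chains, was at 2.12 in ICB and 0.78 in 5-FU tumors, the latter not called. Of 3 genes of class I turnover, Susd6 was higher in ICB at 0.87 and in 5-FU+ICB at 0.84. In cisplatin tumors edgeR called 0 genes of any list against PBS.

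The genes most like the mean of the 8 members over the 28 tumors were chosen among 18513 genes outside the members. The measure was Pearson's r of log2 CPM after each group's mean was subtracted. Of the first 10, those named here were, in order, Slc15a3 (r of 0.966), Tmco4 (0.955), Il12rb1 (0.953), Itgal (0.953), Trafd1 (0.951), Basp1 (0.951), Hcls1 (0.950), Vcam1 (0.946) and Themis2 (0.945). These values leave out the differences between group means, and all 10 rest on the same libraries. By Spearman's rho 5 of the 10 stayed among the first 10, and with CPM on total counts 6 did.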

How the data were processed

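The authors deposited 2 tables of estimated counts per gene, made with kallisto 0.46.0 on GRCm38 (mm10) after bcl2fastq 2.20.0.422, per the submitters' processing notes; 23.7% of the deposited values were not whole and were rounded. Whole tumors were sequenced as single-end reads, and the strand setting is not given in the sources used here. 9 tumors, given PBS or ICB, are shared by the tables. Each table was fitted on its own (R 4.3.3, edgeR 4.0.16, filterByExpr, TMM, quasi-likelihood test, Benjamini-Hochberg over all genes tested), with no block or covariate, and the joined table served for comparisons between drugs. A gene was called at an adjusted p under 0.05 and a log2 fold change over 0.5 in size. The filter left 17916, 17819 and 18521 genes in the 5-FU, cisplatin and joined tables. The SE is the log2 fold change divided by the square root of F. CPM were scaled by TMM over 28 tumors, and log2 CPM used a prior count of 2. Intervals and floors were not needed at these counts, and a count of 3 would be 0.0884 to 0.127 CPM.

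All 8 members are named. Of each pathway list, the genes with the largest log2 fold change in size in ICB, 5-FU and 5-FU+ICB against PBS, and any called against the majority of the list, could be named. The 10 genes outside the members with the highest Pearson r to their mean were also to be named, and 1 of these is not reported here. The members and lists were chosen with earlier results of these data known. Alternatives were DESeq2 1.42.0, its size factors in edgeR, no filter, at least 10 counts in every tumor, the compared groups alone, all 6 groups joined, a replicate block and each tumor left out. Leaving out the 4 libraries with a length correlation under -0.3 was chosen after seeing the data. The length correlation used 10150 genes with a mean log2 CPM over 3. The edgeR step was tested on simulated counts.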

Additional observations from a re-analysis of the deposited data

Results flagged for a closer look

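Dixon's test was applied to the log2 CPM of each member in each of the 6 groups, 48 sets of values in all, and chance marks about 1 in 20 such sets. It marked 2. Tap2 in cisplatin+ICB tumor 1 was at 28.7 CPM, far under the other 4 tumors of its group, with a gap of 0.712 of the group's range on the log2 scale. That library also had the lowest length correlation, at -0.59, and its part in the value was not tested. Tapbp in cisplatin tumor 1 was at 413 CPM, above the other 3 tumors of its group, with a gap of 0.885 of the range on that scale.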

How the results depend on the processing

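The 8 calls for ICB and the 5 for 5-FU against PBS kept their number when any single tumor was left out. DESeq2 called 1 member for 5-FU+ICB against 5-FU, 4 for cisplatin+ICB against cisplatin and 5 for the interaction of 5-FU and ICB. The replicate block called 0 for cisplatin+ICB against PBS and 6 for 5-FU+ICB against PBS. Over all genes it called 95 and 6418, against 1087 and 7283 in the main fits. Same-numbered tumors did not deviate together (median r of -0.02 over 27 pairs in the 5-FU table and -0.09 over 25 in the cisplatin table), so the numbers are not read as pairs. The compared groups alone gave 0 for cisplatin+ICB against PBS and 1 for 5-FU against cisplatin, where 0 and 943 genes in all were called, against 1087 and 67. All 6 groups joined gave 0 for 5-FU against PBS, among 825 genes, against 4115. Without the 4 libraries low in long transcripts the counts were 5 for ICB, 0 for 5-FU, 5 for 5-FU+ICB and 5 for cisplatin+ICB against PBS, 8 for cisplatin+ICB against cisplatin and 2 for 5-FU against cisplatin. Over all genes those fits called 2192, 70, 1789, 1754, 1585 and 354, against 6771, 4115, 7283, 1087, 0 and 67. The causes were not tested.

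With single tumors left out, counts ran from 6 to 8 for 5-FU+ICB and 0 to 7 for cisplatin+ICB against PBS, 0 to 5 for 5-FU+ICB against 5-FU, 0 to 6 for cisplatin+ICB against cisplatin, 0 to 4 for the interaction of 5-FU and ICB and 0 to 4 for 5-FU against cisplatin.

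Signs turned only among values that were not called. For cisplatin against PBS, H2-K1 was 0.0139 with at least 10 counts in every tumor and 0.00227 in the compared groups alone, and without the 4 libraries Tap2 was -0.136, Tapbp -0.0748 and Erap1 -0.0913. With single tumors left out, cisplatin against PBS ran from -0.11 to 0.063 for H2-K1, -0.27 to 0.024 for H2-D1, -0.028 to 0.16 for Tap1, -0.17 to 0.17 for Tap2, -0.043 to 0.26 for Tapbp, -0.024 to 0.57 for Nlrc5 and -0.072 to 0.15 for Erap1. For 5-FU against PBS, B2m ran from -0.060 to 0.41 and H2-D1 from -0.18 to 0.37, and for 5-FU against cisplatin H2-D1 ran from -0.079 to 0.49. For 5-FU+ICB against ICB, H2-K1 ran from -0.32 to 0.024, B2m from -0.23 to 0.10 and Erap1 from -0.066 to 0.020. For 5-FU+ICB against cisplatin+ICB Nlrc5 ran from -0.37 to 0.053.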
